A study of Drosophila melanogaster with 8 samples.

Results

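Maternal NSUN2 knockout embryos of Drosophila melanogaster were followed from 0–0.5 h to 2–3 h after egg laying, and the mRNA level of each gene at the later age was set against its level at the earlier age. The comparison uses 2 of the 8 expression tables of the series, 1 table per age, which were chosen by their labels. Both tables come from embryos laid by NSUN2-/- virgin females mated with males of the w1118 strain, which the labels spell WIII8. NSUN2 lies on the X chromosome, so the male embryos carried no intact copy and the female embryos carried the paternal copy. The other tables are knockout embryos at 4–5 h and wild-type embryos, from w1118 mothers and fathers, at 0–0.5 h, 1–2 h, 2–3 h, 3–4 h and 4–5 h, and none of the groups received a drug or other agent. Each table stands for pooled embryos of mixed sex, and the number of libraries behind it is not given. The study's methods say that FPKM was averaged over replicates, while each deposited table holds a single set of values. The study made 2 mutant lines with CRISPR/Cas9 and used the line with a frameshift deletion for most of its work, without naming the line for these tables. Levels are FPKM, sequenced fragments scaled by transcript length and by library size, each with the uncertainty interval that the Cufflinks program printed beside it.

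A Drosophila egg is loaded with mRNA made by the mother, and the first nuclear divisions run on this load with almost no transcription. During the maternal-to-zygotic transition much of the maternal mRNA is degraded while the zygotic genome is switched on, first at short genes without introns and then broadly at the time when nuclei are enclosed by membranes, the step called cellularisation. NSUN2 is an RNA methyltransferase that makes 5-methylcytosine (m5C) in tRNA and mRNA.

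Nsun2 itself, at X from 4005189 to 4007767 in BDGP5, was examined first because it is the mutated gene. Its knockout FPKM was 0.128 at 0–0.5 h (interval 0.0381 to 0.218) and 0.213 at 2–3 h (0.0989 to 0.328), with 1.18 in the oldest embryos. In wild type its lowest level was 2.61, at 0–0.5 h. The knockout tables were therefore below every wild-type table, as their labels say, and Nsun2 was too low in both knockout tables to be examined for a change. The main mutant line of the study has a frameshift deletion in the coding sequence, a lesion that truncates the protein and need not remove the transcript.

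With 1 table per age there is no replicate check, so no p-value is given. A gene was examined where its FPKM reached 1 at one age or both, which left 7094 of the 15598 listed. A gene is said to have risen or fallen where log2(FPKM + 1) differed by at least 1 and the intervals of both ages did not overlap. The interval covers uncertainty inside a table, so variation among separate embryo collections stays unknown. Its half-width was a median of 23.0% of the value at 0–0.5 h and 23.3% at 2–3 h for genes with FPKM from 1 to 2, and 7.40% and 7.79% for genes with FPKM from 10 to 20. The scale of log2(FPKM + 1) understates the change of weakly expressed genes. Because FPKM is a share of the library and RNA was selected by its poly(A) tail, loss of a transcript, loss of its tail and a change in the rest of the library cannot be told apart, and neither can fewer cells of a kind and less RNA per cell.

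Falls outnumbered rises in the knockout. From 0–0.5 h to 2–3 h, 254 of 7094 genes rose (3.58%) and 1224 fell (17.3%), while the median difference over all genes examined was -0.0028 on the log2 scale. Between the 5th and 95th percentiles the differences ran from -1.85 to 0.89. The genes that rose held 0.261% of the summed FPKM (short RNAs left out) in the youngest embryos, 1.01% at 2–3 h and 2.89% in the oldest. The genes that fell held 11.2%, 3.63% and 3.31% in the same order. Differences of at least 2, or 4-fold on this scale, were reached by 73 of the rises and 185 of the falls. The falls counted here include short RNAs, among them copies of 5S ribosomal RNA, whose median difference was -3.79 over 55 examined. At the threshold, egg was just inside (1.00) and Lapsyn just outside (0.9997) on the side of rises, and CG14043 just inside (-1.0005) and CG9925 just outside (-0.9988) on the side of falls.

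**Figure D1:**
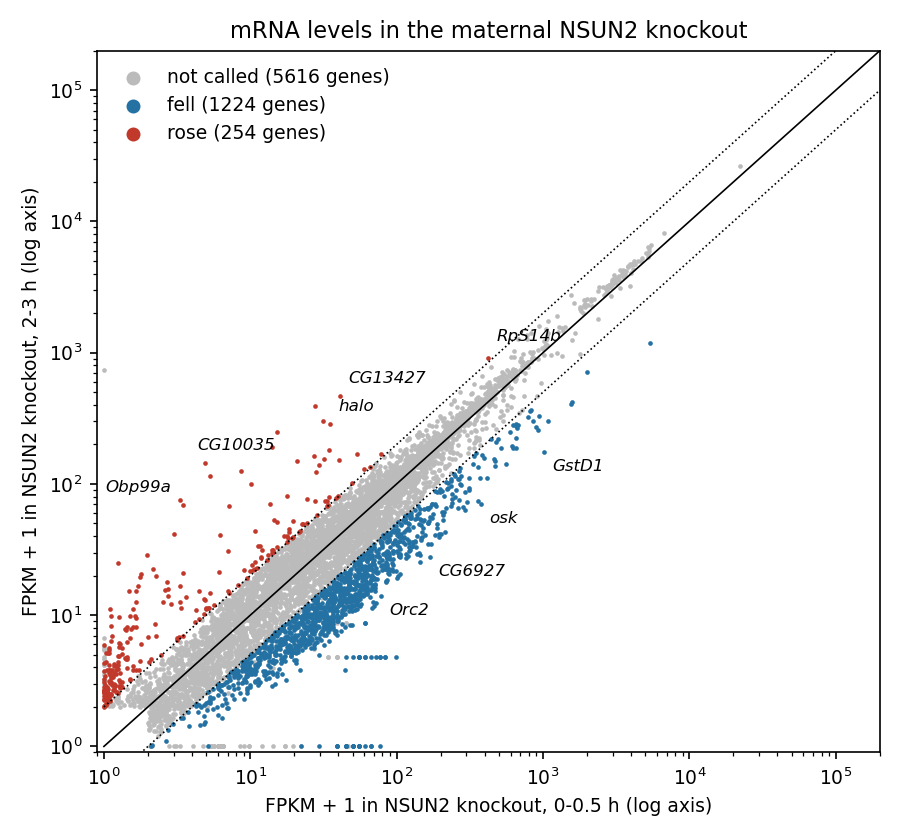
FPKM + 1 of each of the 7094 genes examined, at 0–0.5 h (horizontal, log axis) and at 2–3 h (vertical, log axis) in maternal NSUN2 knockout embryos. The solid line marks equal levels and the dotted lines a 2-fold difference of FPKM + 1; the 254 genes that rose lie mostly at the lower left, and the 1224 that fell form a band below the diagonal.

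The share of calls that were rises depended on how the tables were scaled. It was 17.2% as deposited, 17.6% after median-of-ratios scaling and 16.1% with equal totals, but 40.4% after quantile normalization, which gave 585 rises and 862 falls and moved the median of all genes up by 0.14. No gene that rose or fell as deposited was called in the other direction under any of the alternatives tried.

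By starting level, 137 of the 254 genes that rose had FPKM under 1 at 0–0.5 h, 57 had FPKM of 1 to 10 and 60 had FPKM of at least 10. Of all 7094 genes, 243 (3.43%) started under 1, and these were examined only because they reached 1 at 2–3 h, so they could only be higher there and their count is no support for a rise. Over all 254 genes that rose, the median level went from 0.660 to 7.10 between the ages compared, and was 18.2 in the oldest knockout embryos. Among genes that already had FPKM of 100 to 1000 at 0–0.5 h, 1 of 1404 rose, and none of the 113 genes above 1000 did.

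Of the 12 largest rises among genes that reached FPKM 10, 10 are given here, and 11 were also rises in wild type. CG10035 had the largest of all, from FPKM 3.93 at 0–0.5 h (interval 3.12 to 4.73) to 144 at 2–3 h (139 to 149), a log2 difference of 4.88 and a 36.7-fold ratio. It reached 1751 at 4–5 h. In wild type the same gene had 19.96 at 0–0.5 h and 603 at 2–3 h, a log2 difference of 4.85, so the size of the rise was close in both genotypes while the knockout level was lower at both ages. Obp99a, of the odorant-binding protein family, went from 2.32 to 74.7, sala from 4.34 to 114 and inx3, an innexin of gap junctions, from 2.00 to 40.4. CG4440 went from 26.7 to 393, CG13427 from 39.8 to 467, CG13333 from 2.48 to 68.7 and CG13454 from 0.976 to 28.0. For these 7 genes the knockout level at 4–5 h was higher again, from 151 for CG13454 to 4712 for CG4440. CG43725 and CG14915 behaved differently, going from 7.67 to 124 and from 13.0 to 190 and being at 2.16 and 5.62 at 4–5 h.

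CG43134 stood apart from the other large rises because wild type had little of it. In knockout it went from 0.240 (interval 0 to 0.989) to 23.9 (19.5 to 28.3) and was at 9.34 at 4–5 h, while its 5 wild-type values were 0, 4.69, 0, 0.293 and 2.00 in order of age.

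The genes of cellularisation had the highest median on this scale of the gene lists with at least 6 examined members. All 8 were examined, 6 rose and none fell, against 3.58% of all genes rising, and their median log2 difference was 2.02. On a scale of log2(FPKM + 0.1) their median was 2.08. There the mesoderm (2.54), gap and head gap (2.51) and neuroectoderm (2.11) lists were higher. Z600, which encodes a mitotic inhibitor also called fruhstart, went from 14.3 to 249, and halo, which directs lipid droplet transport, went from 34.0 to 288. Sry-alpha, an organiser of actin at the furrow, went from 6.13 to 67.1, bnk (bottleneck), which times the constriction of the furrow base, from 16.9 to 80.2, and slam, which brings membrane proteins to the furrow, from 13.6 to 52.1. For slam and bnk the log2 differences in knockout, 1.86 and 2.18, were as large as those in wild type, 1.47 and 2.16. The rise of trbl, an inhibitor of the mitotic phosphatase String, was smaller, from 3.81 to 9.24.

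The other cellularisation genes were not called. The level of kuk, a nuclear membrane protein that shapes the elongating nuclei, was 603 at 0–0.5 h and 923 at 2–3 h, a log2 difference of 0.61. That of nullo, an actin regulator of the furrow, was 30.6 and 42.0. In wild type nullo was at 59.5, then 114, then 11.8 over the first 3 ages, which is a fall from 0–0.5 h to 2–3 h.

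**Figure D2:**
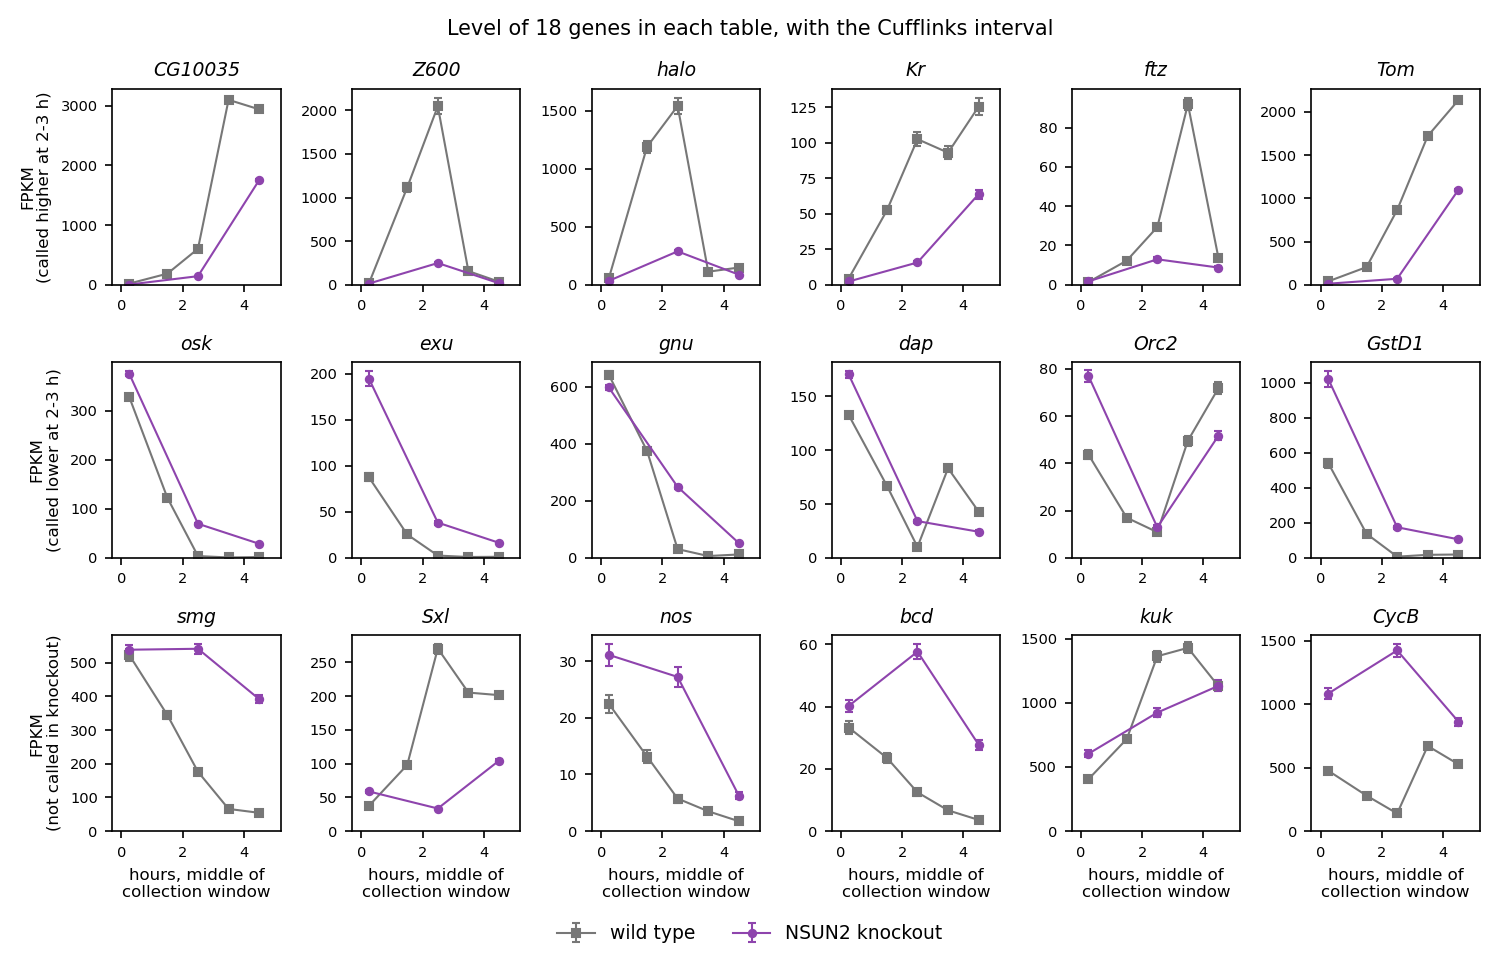
FPKM of 18 genes (vertical axes, each starting at 0) against the middle of the collection window in hours (horizontal), in knockout (circles) and wild type (squares); bars are the Cufflinks interval. Top row, genes that rose in knockout by 2–3 h, such as halo from 34.0 to 288; middle row, genes that fell, such as osk from 376 to 69.6; bottom row, genes not called, such as smg at 539 and 542.

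Segmentation genes divide the embryo along its length in a cascade from gap to pair-rule to segment polarity genes. Of the 16 gap and head gap genes found, 9 were examined, of which 7 rose and 1 fell, beside 3.58% and 17.3% of all genes. As 6 of the 9 started under FPKM 1 and were examined through their level at 2–3 h alone, the filter largely fixed this count. Over all 16 genes, 15 were higher at 2–3 h and the median log2 difference was 0.70. The 7 genes not examined were below FPKM 1 in both tables. Kr went from 2.31 to 15.7, D (Dichaete) from 0.629 to 8.87, gt from 0.990 to 5.79 and tll from 0.441 to 2.99, and kni, hkb and pdm2 rose to between 1.24 and 2.03. The maternally supplied cnc fell from 38.9 to 18.2, a call that was lost under quantile normalization. For hb, which has both a maternal and a zygotic transcript, the levels were 12.6 and 14.3.

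Of the 10 pair-rule genes, 6 were examined and 4 rose, beside 3.58% of all genes, but 3 of the 6 started under FPKM 1. Over all 10 genes the median log2 difference was 0.80. The genes that rose were ftz, from 1.74 to 13.0, odd, from 0.433 to 5.29, h, from 0.760 to 3.47, and slp1, from 3.98 to 10.2. The levels of eve were 0.318 and 0.868, those of prd 0 and 0.847 and those of run 0.591 and 1.14. Of the 10 segment polarity genes, only Wnt5 reached FPKM 1, with 3.82 and 6.70, while en, hh and wg were at no more than 0.365 at 2–3 h. Of 10 genes of the Hox complexes, zen, a dorsal patterning gene, rose from 10.3 to 32.9, and Ubx, Antp and abd-A were at 0.247, 0.204 and 0.631 at 2–3 h. The members that reached FPKM 1 in either table were 9 of 16 gap, 6 of 10 pair-rule and 1 of 10 segment polarity genes. Only the segment polarity list had a clearly lower share.

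Dorsoventral patterning genes rose in part. In the dorsal ectoderm and Dpp list 24 genes were found, 15 were examined, 5 rose and 1 fell. Of all genes examined, 3.58% rose and 17.3% fell. Tld, the protease tolloid that frees the BMP ligand from its inhibitor and is listed as tld, went from 2.36 to 10.4, Ance, a peptidase of the angiotensin-converting enzyme family, from 0.407 to 6.67, and the T-box gene Doc1 from 0.448 to 3.62. The repressor brk went from 0.128 to 2.85. The receptors tkv and put were at 80.6 and 89.3, and at 137 and 154, and shn, a zinc finger protein of the Dpp pathway, fell from 10.3 to 4.47, a call that quantile normalization did not make. In the mesoderm list 12 of 16 genes were examined and 6 rose. Among them were sna and twi, the transcription factors that specify mesoderm, which went from 1.88 to 11.1 and from 0.285 to 5.06. Ilp4, an insulin-like peptide, went from 5.16 to 40.1, and Cyp310a1 from 0.265 to 5.14. The fall of mthl1, from 6.36 to 2.67, was at the threshold (-1.0044) and was lost under median-of-ratios scaling and under quantile normalization. In the neuroectoderm list 7 of 17 were examined and 3 rose, brk, the adhesion protein Nrt, from 9.83 to 42.8, and sca, from 0.0445 to 1.16. The examined members include 4, 5 and 3 genes of these lists, in the same order, that started under FPKM 1 and could not have been examined otherwise. Over all members found, the median log2 difference was 0.47 for dorsal ectoderm, 0.46 for mesoderm and 0.46 for neuroectoderm.

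Target genes of the Notch pathway rose. In a list of targets and pathway components, 20 genes were found, 18 were examined, 11 rose and none fell, beside 3.58% of all genes rising. Of the 18, 7 started under FPKM 1 and were examined through their level at 2–3 h alone, and the median log2 difference over all 20 was 1.125. The genes that rose belong to the Bearded family, small proteins that inhibit the ubiquitin ligase Neuralized, and to the Enhancer of split complex of transcriptional repressors. Tom went from 12.6 to 69.6, Ocho from 2.61 to 12.7 and malpha from 0.267 to 4.71. BobA, which went from 13.2 to 30.6, has near-identical neighbours, and its value is uncertain for that reason. HLHm7 went from 0.530 to 6.85, and the other Enhancer of split repressors were at 1.36 to 3.80 at 2–3 h. Components of the pathway itself were not called, with Su(H), its DNA-binding factor, at 67.3 and 81.4 and the receptor N at 5.33 and 5.02.

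The summed level of Sxl, the switch gene of sex determination, was not called in knockout, while it rose in wild type. These levels are gene totals in embryos of mixed sex, so the state of the switch itself was not tested. Sxl was at 58.6 (interval 56.5 to 60.8) at 0–0.5 h and 33.4 (32.0 to 34.8) at 2–3 h in knockout, and at 104 at 4–5 h. In wild type it rose from 37.4 through 97.9 to 270 between 0–0.5 h and 2–3 h. Of the X-linked and autosomal factors that count chromosomes to set Sxl, sisA was at 9.30 and 15.97, sc at 10.9 and 6.49, and run and os at no more than 1.14. In this list of 10 genes, 9 were examined and 2 rose, beside 3.58% of all genes. The 2 were dpn, from 1.10 to 3.67, and the corepressor gro, from 18.2 to 37.5, which was at the threshold (1.0016). RoX1, a non-coding RNA of the male X-chromosome dosage compensation complex that is listed as roX1, rose from 1.16 to 21.6, with 118 at 4–5 h and 173 in wild type at 2–3 h. The protein components msl-1, msl-3, mle and mof were not called, and msl-2 was at 0.1001 and 0.865.

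Maternal mRNAs of the germ plasm and of localised patterning fell more often than genes at large. All 22 were examined, 12 fell (54.5%) and none rose, against 17.3% of all genes falling, with a median log2 difference of -1.04. Oskar, the organiser of germ plasm listed as osk, went from 376 (interval 372 to 380) to 69.6 (67.8 to 71.5), and exu, needed to localise bcd mRNA, from 194 to 38.3. The helicase vas went from 182 to 39.5, the translational regulator orb from 55.2 to 14.4, pgc, which silences transcription in pole cells, from 658 to 225, and gcl, needed to form pole cells, from 268 to 131. Hsp83, the Hsp90 chaperone whose mRNA is protected at the posterior pole, went from 1075 to 299.

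A second set of germ plasm and patterning mRNAs was not called. The levels of bcd were 40.2 and 57.6, those of nos 31.1 and 27.2, those of grk 24.8 and 24.5 and those of mael 148 and 168. CycB, the mitotic cyclin whose mRNA is kept at the posterior pole, was at 1083 and 1423 in knockout, and at 475 and 138 in wild type, where it fell. At 4–5 h bcd was at 27.7 and nos at 6.26 in knockout, below their values at both earlier ages.

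Most genes that carry out mRNA decay and translational repression were not called. Of 22 examined, 1 fell and none rose, beside 17.3% and 3.58% of all genes. The median log2 difference was -0.0040, which turned positive under median-of-ratios scaling and quantile normalization. The level of smg, the RNA-binding protein that recruits the deadenylase to maternal mRNA, was 539 (524 to 554) at 0–0.5 h, 542 (527 to 557) at 2–3 h and 392.1 at 4–5 h. In wild type smg went from 524 to 176, and 11 of the 22 genes fell. The helicase me31B was at 3360 and 3099 in knockout. The gene that fell was eIF-4E, the cap-binding protein, from 785 to 323.

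Egg activation and meiosis genes fell in 5 of 12 examined, beside 17.3% of all genes. Gnu, a subunit of the PNG kinase that drives the start of embryogenesis and is listed as gnu, went from 597 to 249, mos, a kinase of meiotic arrest, from 68.8 to 15.2 and cort, a meiotic activator of the anaphase-promoting complex, from 32.1 to 9.05. CanA-14F, a calcineurin subunit, went from 16.3 to 5.16 and fs(1)Ya, a nuclear envelope protein of the first division, from 8.29 to 2.94. The level of wisp, the poly(A) polymerase of the activated egg, was 59.2 and 58.5, while in wild type it fell from 50.0 to 5.73.

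Among 31 cell cycle genes 4 fell (12.9%) and 1 rose (3.23%), shares near those of all genes, 17.3% and 3.58%. The falls were dap, the inhibitor of Cyclin E, from 170 to 34.2, lok, the checkpoint kinase Chk2, from 313 to 110, cdc2c, which encodes Cdk2, from 196 to 87.9, and Myt1, an inhibitory kinase, from 17.4 to 7.56. The gene that rose was trbl. The phosphatases that time the mitoses were not called, with stg at 56.3 and 30.5 and twe at 213 and 238, whereas stg fell in wild type from 51.9 to 3.99. The median of the list was 0.0017 in knockout and -0.70 in wild type, where 13 of 30 fell.

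The factors that switch on the zygotic genome were not called. Zelda, listed as vfl, was at 13.4 and 17.5, CG1832 at 272 and 277 and Trl at 42.7 and 76.7 (0.83 on the log2 scale). In the wider list of maternal activators, 1 of 21 examined genes rose (gro, at the threshold) and 3 fell (14.3%), near the shares of all genes, 3.58% and 17.3%. The falls were in the Toll and Torso pathways, dl, the transcription factor Dorsal, from 54.3 to 13.6, spz, the ligand of the receptor Toll, from 93.5 to 29.6 and trk, the ligand of the receptor Torso, from 10.5 to 3.22. Of the other genes of m5C, Mt2, a tRNA methyltransferase, was at 5.01 and 5.50 and the reader yps at 28.8 and 37.2. Ref1, the export factor and m5C reader known from human cells as ALYREF, went from 71.5 to 143, just under the threshold (0.99).

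DNA replication genes fell often in a list that was chosen after several of them were seen among the large falls, so the count is a description only. Of 27 genes 13 fell (48.1%, beside 17.3% of all genes) and none rose, with a median log2 difference of -0.98. Orc2, of the origin recognition complex, went from 77.1 to 12.9, RfC4, of the clamp loader, from 148 to 38.6, RnrS, a ribonucleotide reductase subunit, from 311 to 92.7 and Gnf1, the large clamp loader subunit, from 87.8 to 28.1. Levels at 4–5 h were higher again in these 4, with Orc2 at 51.8 and RnrS at 654 at 4–5 h. The clamp mus209 (PCNA) was at 623 and 461 and Mcm7, of the replicative helicase, at 238 and 320. Heat shock and chaperone genes fell in 6 of 11 examined (54.5%, beside 17.3% of all genes), with Hsp27 from 2005 to 707 and Hsp26 from 927 to 255, both small heat shock proteins stored in the egg. The inducible Hsp70 genes listed were below 0.08 in both tables.

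With short RNAs left out, the 12 largest falls from FPKM of at least 10 were close to each other in size. They ran from -2.60 to -2.46 on the log2 scale, and wild type had falls of -6.05 to -1.91 in 11 of the same genes. CG6927 went from 167 (164 to 171) to 26.8 (25.4 to 28.2) in knockout and from 110 to 0.928 in wild type. GstD1, a glutathione S-transferase and the most abundant of the 12, went from 1020 to 175 in knockout and from 540 to 7.15 in wild type. The others were CG31249, Pld, which encodes phospholipase D, the tetraspanin Tsp42Ef, GstD3, yin, Orc2, CG2990, CG7745, CG9896 and pad. Pad, a zinc finger protein listed as pad, went from 20.9 to 2.84 and was not called in wild type, where it was at 9.17 and 6.74. In the whole glutathione S-transferase family, looked up after GstD1 was seen, 3 of 13 examined members fell (23.1%, near the 17.3% of all genes), GstD1, GstD3 and GstE6. Paralogs of this family are alike in sequence, so single members are less certain.

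Among abundant mRNAs the knockout falls stopped short of the deepest wild-type falls. Among the 1037 genes other than short RNAs that fell from FPKM of at least 10, the median share left at 2–3 h was 32.3%, the 5th percentile was 19.8% and the lowest was 13.5%, for CG6023. Of these, 0 had under 10% left and 58 (5.59%) had under 20%. Among the 1682 such genes of wild type, the median left was 25.9%, the 5th percentile 3.40% and the lowest 0.514%, and 285 (16.9%) had under 10%. For the 708 genes that fell in both from FPKM of at least 10 in both, the medians left were 32.7% in knockout and 15.96% in wild type.

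**Figure D3:**
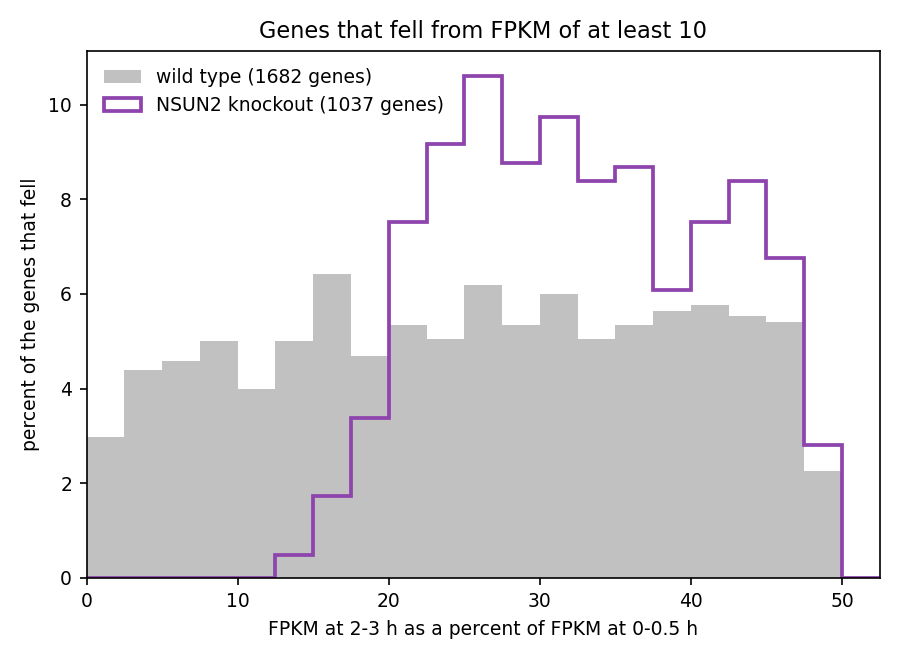
Share of the starting FPKM left at 2–3 h (horizontal, in percent, bins of 2.5) for genes other than short RNAs that fell from FPKM of at least 10, as a percent of those genes (vertical); outline, 1037 genes in knockout; grey, 1682 genes in wild type. The knockout outline starts at 13.5%, while 16.9% of the wild-type genes had under 10% left.

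Most abundant housekeeping genes were not called. Of 86 genes for cytoplasmic ribosomal proteins examined 1 rose and none fell, beside 3.58% and 17.3% of all genes. Their median log2 difference was 0.22. The gene that rose was RpS14b, from 422 to 909, but its neighbour RpS14a is a near-identical copy, which was at 1643 and 1402, and reads of the pair may have been divided between them. Of 72 mitochondrial ribosomal protein genes 12 fell (16.7%), close to the background of 17.3%, and 4 of 29 proteasome genes fell (13.8%). The 13 mitochondrially encoded mRNAs were not called, with a median of 0.07 in knockout and 0.89 in wild type. In knockout mt:CoIII was at 5275 and 6273.

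**Figure D4:**
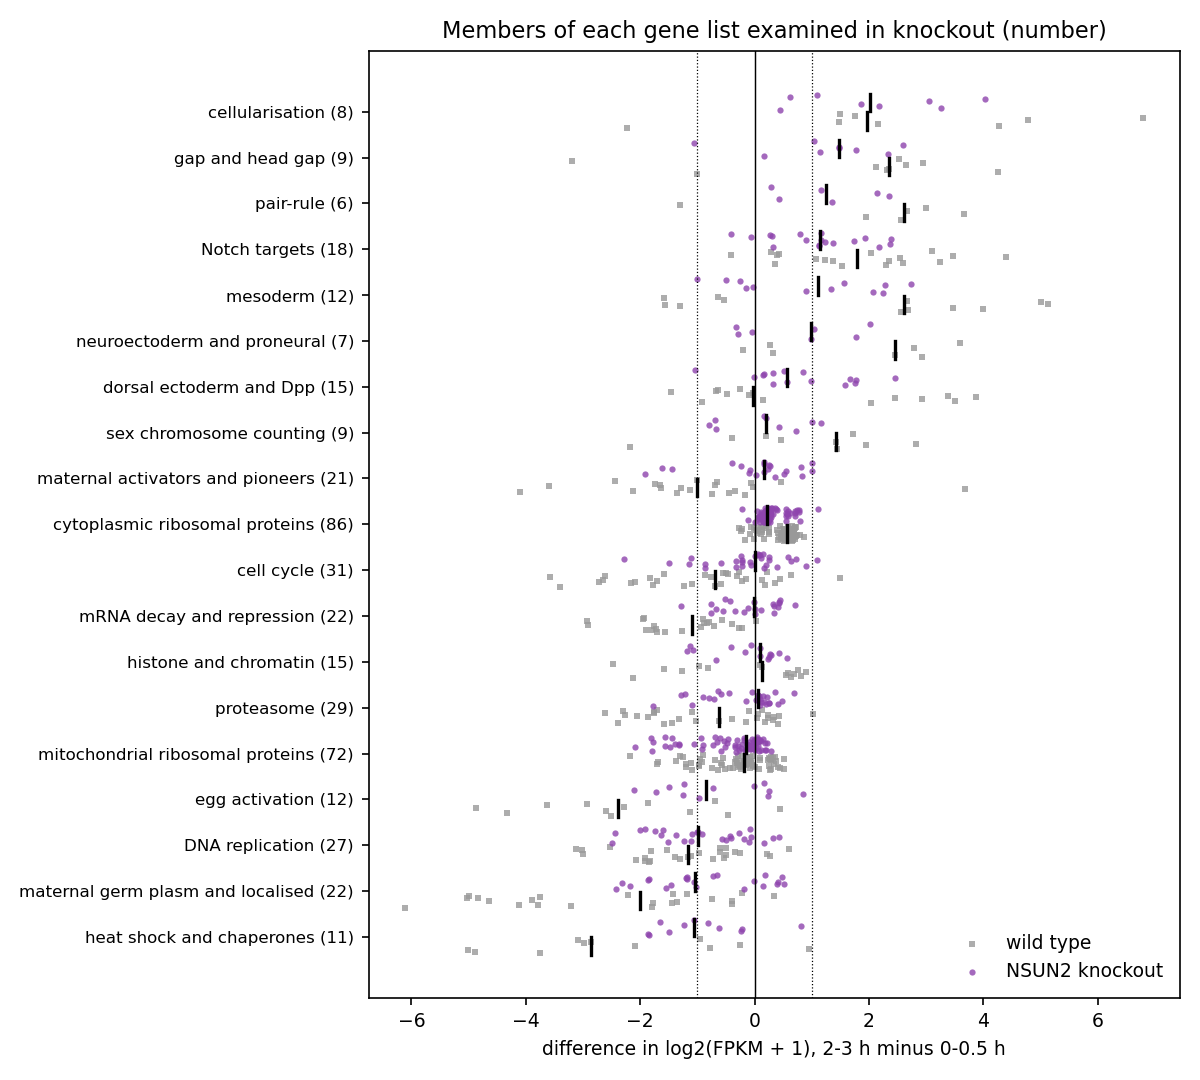
Difference in log2(FPKM + 1) between 2–3 h and 0–0.5 h (horizontal) for each examined member of 19 gene lists, in knockout (circles) and wild type (squares); black bars are medians over these members, the number in parentheses is how many were examined, and dotted lines mark differences of 1 and -1. The cellularisation list has the highest knockout median (2.02) and the heat shock list the lowest (-1.06), and a member with low levels is shown only if it reached FPKM 1 in a knockout table.

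The same step was measured in wild type, in tables that share no sample with the knockout ones. There 773 of 7451 genes rose (10.4%) and 2297 fell (30.8%). Of the 254 genes that rose in knockout, 183 also rose in wild type, which is 72.0% of the knockout rises and 23.7% of the wild-type rises. Their median difference was 1.75 in knockout and 3.38 in wild type, and 167 of the 183 had the smaller change in knockout. Their knockout level at 2–3 h was below that of wild type at 2–3 h in 175, at 1–2 h in 132 and at 0–0.5 h in 4. The genes were selected for a rise in both genotypes, which favours a level above that of the youngest wild type. These counts are therefore a description only.

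Of the 1224 genes that fell in knockout, 863 also fell in wild type, 70.5% of the knockout falls and 37.6% of the wild-type falls. Medians were -1.51 in knockout and -2.29 in wild type, and 693 of the 863 had the smaller change in knockout. Their level at 2–3 h was higher in knockout than in wild type at the same age for 771 genes, and higher than in wild type at 1–2 h for 307. Genes that fell in wild type alone numbered 1434, and those that rose in wild type alone 590, with median knockout differences of -0.34 and 0.29. Of the 590, 190 were examined and not called in knockout, 15 fell, and the rest were not examined there. The median knockout FPKM of the 590 was 0.133 at 0–0.5 h and 0.593 at 2–3 h, where this scale understates change. The difference between genotypes was not tested, since each side is 1 table.

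**Figure D5:**
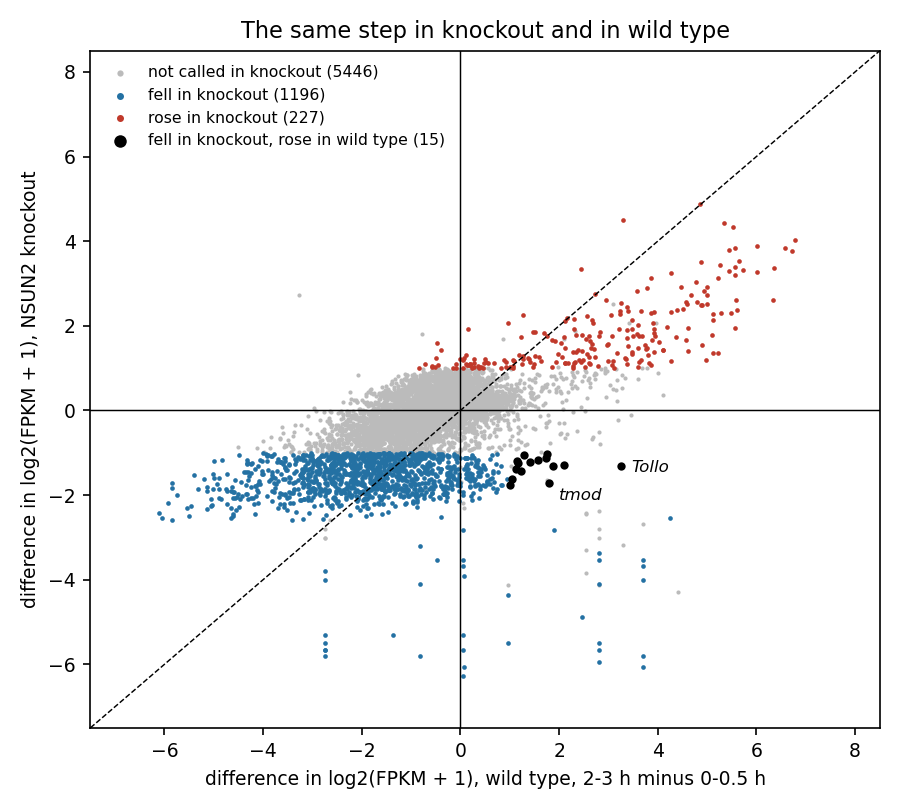
Difference in log2(FPKM + 1) from 0–0.5 h to 2–3 h in wild type (horizontal) and in knockout (vertical) for genes examined in both; the dashed line marks equal change. Rises in knockout (red) lie mostly below the dashed line and falls (blue) mostly above it in the lower left, black points are the 15 genes that fell in knockout and rose in wild type, and the scattered points far below the band of falls are short RNAs, mostly copies of 5S ribosomal RNA.

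No gene rose in knockout and fell in wild type, while 15 fell in knockout and rose in wild type. Tollo, a Toll-family receptor, went from 8.27 (7.88 to 8.66) to 2.76 (2.53 to 2.99) in knockout and was at 13.1 at 4–5 h. In wild type it was at 0.532, 3.78, 13.6, 24.3 and 24.9 in order of age. The start level was higher in knockout than in wild type for 14 of the 15 genes, pbl being the exception, and for 59.1% of all genes examined. A fall in knockout with a rise in wild type favours such a start, so this count is a description only. Tmod, the actin-capping tropomodulin listed as tmod, went from 24.7 to 6.83 in knockout and from 16.4 to 59.2 in wild type, and Ime4, the m6A methyltransferase of mRNA, from 13.0 to 4.66 and from 4.55 to 19.3. CG8097 went from 17.3 to 6.46 in knockout, CG7148 from 11.4 to 4.74 and Atac2, an acetyltransferase, from 6.05 to 2.47. The rest were Sirt2, pbl, Ravus, Hem, CG12004, Cdk8, bwa, Vps36 and Cnb. For all of the 15 but Ravus the knockout value was higher at 4–5 h than at 0–0.5 h. The intervals of both ages overlapped for CG8097 (17.3 at 0–0.5 h and 17.4 at 4–5 h) and Sirt2 (11.4 and 12.6).

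A fall in knockout alone is favoured by a higher knockout level at 0–0.5 h, so the start levels of these genes are a description only. Of the 316 falls, short RNAs left out, that wild type did not share, 285 had the higher FPKM at 0–0.5 h in knockout, as had 4194 (59.1%) of all 7094 genes. Their knockout medians were 23.8, 7.17 and 17.96 from the youngest to the oldest embryos, against 14.2, 8.54, 12.4, 28.9 and 32.8 over the 5 wild-type tables. Of the 71 rises that wild type did not share, 44 were examined and not called there and 27 were below the minimum of FPKM 1. In 53 of the 71 the highest wild-type value was at 3–4 h, as it was in 1813 (25.6%) of all genes examined. The wild-type table at 3–4 h stood apart from its neighbours in age, with a summed FPKM of 144 for 8 muscle markers against 1.46 at 2–3 h and 10.5 at 4–5 h, and the part of this in the peak was not tested. CtBP, a corepressor, went from 33.5 to 78.5 in knockout and was at 26.4, 30.5, 37.5, 204.6 and 79.4 in wild type in order of age. It was chosen after its values were seen, as were lark, an RNA-binding protein, which went from 23.6 to 49.8, and CR31144, which went from 26.7 to 73.2.

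Some rises in knockout alone were of genes that wild type hardly had. Of the 71 genes, 10 had FPKM under 1 in every wild-type table, beside 91 of all 7094 genes examined. A gene under 1 in all of those tables could not be called in wild type. At 0–0.5 h in knockout, 10 of the 71 were listed at 0, beside 29 of the 7094. Genes listed at 0 were examined only because they reached 1 at 2–3 h in knockout, so they could only be higher there. CG13113 was listed at 0, 4.89 and 0.0727 in order of age, CG16995 at 0, 3.29 and 0.117, and Dro, the antimicrobial peptide drosocin, at 0, 1.26 and 0.182, all 3 chosen after their values were seen. Without genes under 1 in every wild-type table, 244 genes rose.

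Markers of other tissues were looked at for the same tables. Of 41 markers of follicle cells and eggshell, adult fat body, muscle, neurons, cuticle and male germ line, 38 were at no more than 0.175 at 0–0.5 h and 0.765 at 2–3 h. Cp15, a chorion protein of the eggshell, rose from 2.31 to 11.7, above its wild-type range of 0.819 to 1.34, and Act57B, a muscle actin, rose from 0.0837 to 2.84. The summed level of the 12 follicle cell and eggshell markers was 2.39 and 11.8, nearly all from Cp15, and Cp18, Cp19, Cp36 and Cp38 were at 0 in both tables. Bam, a germ line gene that is also maternal here and is listed as bam, was at 120 and 79.3. The part of these in the other changes was not tested.

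Short RNAs made up 47 of the 1224 falls and none of the rises. Of these, 37 were copies of 5S ribosomal RNA, looked up after they were seen, of 55 copies examined. Examples are 5SrRNA:CR33379, at 98.4 (52.0 to 145) and 3.82 (0 to 11.5), and 5SrRNA:CR33431, at 76.6 and 0. The summed level of the 100 listed copies was 2572 at 0–0.5 h and 142 at 2–3 h in knockout and 199 and 294 in wild type, so the knockout table at 0–0.5 h stood apart. The copies are near-identical and are not polyadenylated as mRNA is, so their single values are uncertain. Without short RNAs 1177 genes fell.

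Gene structure, which the calls did not use, differed modestly between groups. Exon counts came from the Ensembl annotation for 6776 of the 7094 genes (95.5%). Genes with 1 exon made up 13.8% of all genes examined, 23.4% of rises and 13.3% of falls. Among rises the share was 15.2% for those that started under FPKM 1 and 34.0% and 32.2% for those that started at 1 to 10 and at 10 or more. Genes spanning under 1500 bp made up 28.3% of all, 34.6% of rises and 30.6% of falls. The X chromosome held 16.4% of all genes examined, 12.6% of rises and 14.1% of falls. It held 12 of the 183 genes that rose in both genotypes (6.56%) and 20 of the 71 that rose in knockout alone (28.2%), counts with no test.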

How the data were processed

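Poly(A)-selected, strand-specific mRNA-seq of maternal NSUN2 knockout embryos at 0–0.5 h and 2–3 h was used, with the other 6 tables as levels beside it. Conditions were taken from the sample labels. Per the submitters' notes and the study's methods, reads were trimmed with cutadapt 1.13 after bcl2fastq 2.17 and aligned to BDGP5 with TopHat2, and unique alignments were passed to Cufflinks. The authors deposited FPKM values with interval bounds, 1 table per condition, with no fragment counts, so the depth is unknown and precision was read from the bounds. Fragments per unit of FPKM, implied by the bounds, had a ratio of 0.996 between both knockout tables (median of 2976 genes). The labels name a spike-in mix, but the tables list 0 rows named SIRV, so scaling to it was not run.

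From the deposited FPKM, the difference of log2(FPKM + 1) was taken per gene with a pseudocount of 1, over genes whose estimates were marked OK in both tables. Calls needed FPKM of at least 1 in either table, a difference of at least 1 and intervals apart. Named are Nsun2, the 12 largest rises and falls with FPKM of at least 10 in the higher table, short RNAs left out, up to 5 called and 2 uncalled members per list by FPKM, and the 6 genes with the largest difference between genotypes among those called in opposite directions. Other named genes are list members given for their role or were chosen after their values were seen. The members and lists were chosen with earlier results of these data known, and 3 lists (DNA replication, glutathione S-transferases, 5S copies) after values were seen. Of the listed symbols, 8 were not found in the tables. Coordinates are those of the tables. Exon numbers came from Ensembl release 115 (BDGP6), matched by gene ID. Promoter motifs and sequences were not analysed here. Python 3.11.15, numpy 2.4.6, pandas 2.3.3 and matplotlib 3.10.9 were used, and the steps were tested on simulated data. Alternatives were other pseudocounts, minimums, scalings and call rules, and leaving out groups of genes.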

Additional observations from a re-analysis of the deposited data

Results flagged for a closer look

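A group of 15 genes was called lower in knockout and higher in wild type over the same step, so that the 2 genotypes moved in opposite directions. The difference was not tested, because each genotype has 1 table per age. Subtracting the wild-type difference from the knockout difference gave, in log2(FPKM + 1), -4.55 for Tollo, -3.51 for tmod, -3.39 for CG8097, -3.17 for Ime4, -2.86 for CG7148 and -2.78 for Atac2. The number of such genes was 25 with a pseudocount of 0.1, 3 with a pseudocount of 5, 33 with median-of-ratios scaling, 11 with equal totals and 35 with quantile normalization, alternatives chosen after seeing the data.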

How the results depend on the processing

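The numbers of genes that rose (254) and fell (1224) depended on how a call was made. With a pseudocount of 5 in place of 1, 88 genes rose. With a minimum FPKM of 5, 144 rose. After quantile normalization 585 rose, and 243 of the 254 rises and 859 of the 1224 falls were kept. With intervals apart and no minimum difference, 2512 rose and 2774 fell, and with a minimum difference of 2 on the log2 scale, 73 rose and 185 fell. The other alternatives stayed within 1.5 times of both counts. The median over all genes moved by less than the median half-width of the intervals in each alternative, and no gene changed the direction of its call. Of the gene list medians, 4 had another sign under a scaling: mRNA decay under median-of-ratios scaling and quantile normalization, the cell cycle under equal totals and glutathione S-transferases under quantile normalization. Among named genes the sign changed in 10 of 825 values, none for a called gene. The alternative without genes under FPKM 1 in every wild-type table, and the recounts of overlaps between genotypes, were chosen after seeing the data. Leaving out a replicate could not be run with 1 table per age. No paired analysis was possible because each condition is a single table with no replicate number. Depth is unknown, and genes near FPKM 1 have the widest intervals.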
